A study of Rattus norvegicus with 96 samples.

Results

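Nuclear genes for subunits of respiratory complexes II, III, IV and V were compared between rats that drank ethanol and rats given water. A gene was a member if its symbol was Sdha, Sdhb, Sdhc, Sdhd or Cyc1, or if it began with Uqcr, with Atp5, or with Cox4, Cox5, Cox6, Cox7 or Cox8 followed by a letter or digit. That rule found 45 genes of the 14217 with a symbol on the array: 4 of complex II, 8 of complex III, 17 of complex IV and 16 of complex V. It reads names only, so it also takes genes that are no core subunit, such as Atp5if1, an inhibitor of complex V, Cox7a2l, a factor of respiratory supercomplexes, and Cox6c-ps1, a pseudogene. Each gene was read from the probe set with the highest mean over all 96 arrays.

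All animals were P rats, the alcohol-preferring line. The series title places the ethanol rats after binge drinking, and the labels give them limited access to ethanol, while the water rats had no ethanol. RNA was taken from 2 brain regions, the amygdala's central nucleus (CeA) and the accumbens nucleus, shell part (NAc shell), at 1, 6 or 24 h after the last drinking episode. For the CeA there were 11 ethanol and 6 water arrays at 1 h, 10 and 5 at 6 h, and 10 and 6 at 24 h. For the NAc shell there were 10 ethanol and 7 water arrays at 1 h, 10 and 5 at 6 h, and 11 and 5 at 24 h. The age, sex and ethanol intake of the rats are not given in the sources used here. No label says that each array is a separate rat, so the p-values measure the spread between arrays.

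Complex II, succinate dehydrogenase, passes electrons from succinate to ubiquinone, and complex III passes them on to cytochrome c. Complex IV, cytochrome c oxidase, hands them to oxygen, and complex V, ATP synthase, makes ATP from the proton gradient that complexes III and IV help to build. In the brain most ATP comes from this chain, and much of it is spent on ion gradients and synaptic transmission. Several subunits of complex IV exist as isoforms, one found in most tissues and another enriched in heart, muscle, lung or testis.

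The values are log2 expression. Array medians ran from 7.68 to 7.82 (CeA) and from 7.78 to 7.85 (NAc shell), and the number of arrays limits the precision. The tissue labels were checked with marker genes on the same probe sets. Median log2 expression of the dopamine receptor gene Drd1 was 11.40 on CeA arrays and 13.82 on NAc shell arrays, and that of Crh, corticotropin-releasing hormone, was 9.44 and 6.40. Median log2 expression of the choroid plexus gene Folr1 was 4.79 and 5.55, below the detection limit of both regions. Ttr, another choroid plexus gene, lay above the limit in both. Its ethanol minus water difference over the 3 times was -0.03 ± 0.11 (CeA) and -0.01 ± 0.06 (NAc shell, log2, SE). A few arrays stood apart by their low correlation with the other arrays of their region: 4 in the CeA (1 ethanol array at 1 h, 1 ethanol array and 2 water arrays at 6 h) and 5 in the NAc shell, all of them ethanol arrays (1 at 1 h, 2 at 6 h and 2 at 24 h). Several counts and means of the members are given with and without these 9 arrays. Values of single genes are from all arrays unless stated, and some of them move when an array is left out. The numbers in the CeA array titles run through the hours 4 times, in runs of 8, 16, 16 and 8 arrays. The labels do not say what a run is, and all 4 low-correlation arrays of the CeA were in the last one. Of the 45 members, 39 lay above the detection limit in each region (a region mean above the 40th percentile of all probe sets) and were tested. The 6 others were all isoforms or a pseudogene of complex IV and are described at the end.

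No member passed an adjusted p of 0.05 in any of the 14 comparisons of ethanol with water (limma, Benjamini-Hochberg over 18625 probe sets in each region or 17572 for the region difference), and no other probe set passed either. The members nonetheless lay mostly on opposite sides of 0 in the 2 regions. In the NAc shell all 39 tested members were higher with ethanol over the 3 times together, where 53.4% of all probe sets were above 0. Of these, 15 had an unadjusted p under 0.05, and 6.75% of all probe sets were higher at that level. The members' median difference was 0.10 on the log2 scale, against 0.01 for all probe sets. In the CeA 33 of 39 were lower with ethanol over the 3 times, where 50.7% of all probe sets were below 0. Of these, 5 had an unadjusted p under 0.05 (3.54% of all were lower at that level), and the median difference was -0.05. In tissue RNA, fewer cells of a type and less RNA per cell cannot be told apart.

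The CeA median was lowest at 6 h. There 38 of 39 members were lower with ethanol (53.9% of all probe sets were below 0), 12 of them at an unadjusted p under 0.05 (4.68% of all), and the median difference was -0.18. At 1 h 18 members were higher and 21 lower (55.5% of all were above 0), with 1 higher at an unadjusted p under 0.05 (3.89% of all) and a median of -0.02, and 27 were lower once the title runs were a block (described with the runs). At 24 h 27 were higher and 12 lower (48.8% of all were above 0), with a median of 0.03. Of these, 0 had an unadjusted p under 0.05 (0.328% of all were higher and 0.328% lower). With array quality weights only 13 were higher, a count without the share of all probe sets beside it. Without the low-correlation arrays 31 members were lower over the 3 times, 6 of them at an unadjusted p under 0.05 (2.68% of all), and 35 were lower at 6 h, 9 of them at that level (1.05% of all). The share of all probe sets below 0 without these arrays is not given here. The difference was lowest at 6 h for 36 of 39 members (92.3%), as it was for 41.9% of 17572 probe sets. A test for an ethanol effect that depended on the hour gave 2 of 39 members at an unadjusted p under 0.05 (1.34% of all) and 0 after adjustment (limma, smallest adjusted p 0.979 for Cox7a1).

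The mean of the 39 members on each array shows where the 6 h difference sat. In the CeA that mean was 12.13 ± 0.05, 12.28 ± 0.12 and 12.08 ± 0.13 (SD, n = 6, 5 and 6) in the water groups at 1, 6 and 24 h. In the ethanol groups it was 12.11 ± 0.15, 12.10 ± 0.08 and 12.11 ± 0.09 (SD, n = 11, 10 and 10). The ethanol groups were thus level over the hours, and the water group at 6 h had the highest mean of the 6 CeA groups, a difference between hours that was not tested. At 6 h 7 of 10 ethanol arrays lay below all 5 water arrays. The 6 h difference of this mean was -0.18, and -0.16 without the low-correlation arrays, which leaves 9 ethanol and 3 water arrays. Within the 4 title runs it was -0.23, -0.12, -0.12 and -0.17, with 1, 1, 1 and 2 water arrays.

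**Figure D1:**
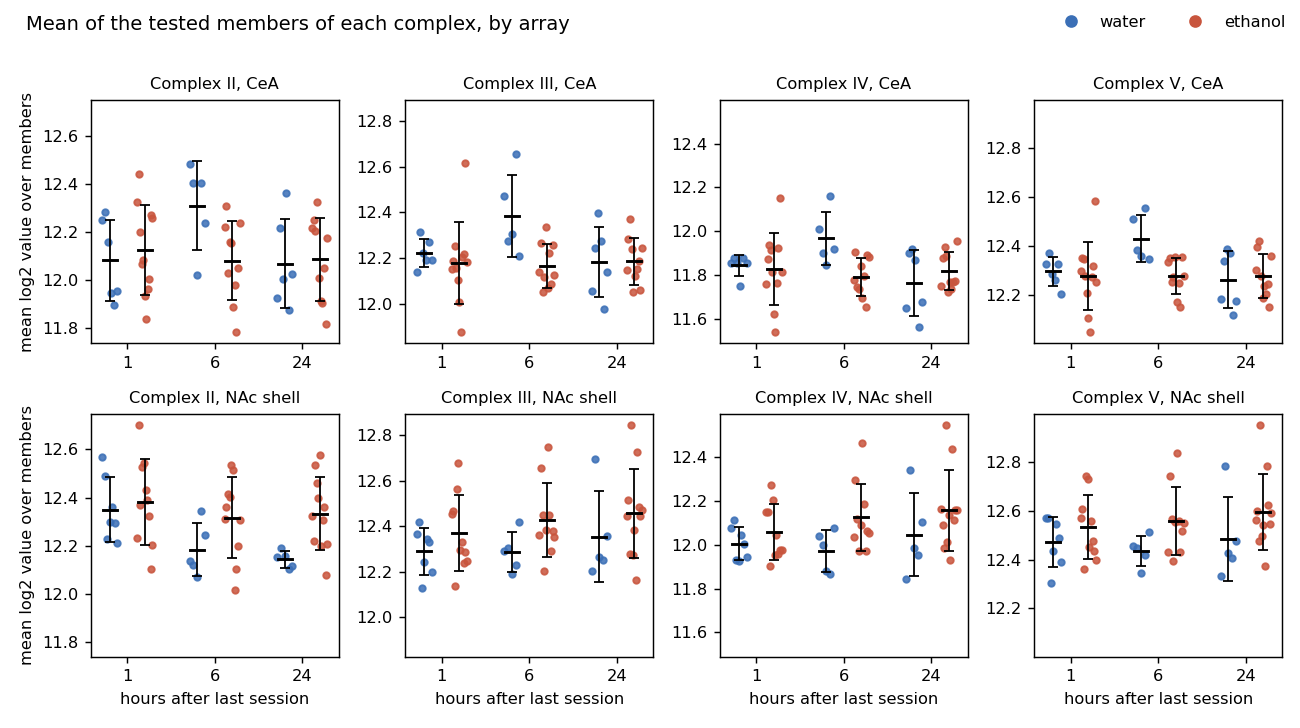
Mean log2 expression of the tested members of each complex on each array (vertical axis) by hours since the last drinking episode (horizontal axis), CeA and NAc shell, water in blue and ethanol in red; points are arrays and bars are group means ± SD. In the CeA the water mean at 6 h lies highest for each complex, and in the NAc shell the ethanol mean lies above the water mean of each complex at each hour.

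Members were higher in the NAc shell at each hour. At 1 h 35 of 39 members were higher with ethanol (9679 of all 18625 probe sets were), 1 of them at an unadjusted p under 0.05 (1.16% of all), with a median of 0.05. At 6 h all 39 were higher (9867 of all 18625 were), 4 of them at an unadjusted p under 0.05 (2.53% of all), with a median of 0.15. At 24 h 38 were higher (53.8% of all), 5 of them at an unadjusted p under 0.05 (2.33% of all), with a median of 0.10. Being higher at all 3 hours held for 34 of 39 members (87.2%) and for 25.4% of 17572 probe sets. No member had an unadjusted p under 0.05 in the test for an effect that depended on the hour (0.864% of all), and 0 passed after adjustment (limma, smallest p among members 0.174 before and 1.000 after adjustment, for Atp5pf).

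The mean of the 39 members in the NAc shell was 12.29 ± 0.09, 12.25 ± 0.07 and 12.30 ± 0.17 (SD, n = 7, 5 and 5) with water at 1, 6 and 24 h. With ethanol it was 12.35 ± 0.13, 12.38 ± 0.14 and 12.42 ± 0.16 (SD, n = 10, 10 and 11). The arrays overlapped at each hour, with 3, 6 and 2 ethanol arrays above all water arrays. The low-correlation arrays, all of the ethanol groups, carried part of this: without them the differences of this mean went from 0.06, 0.14 and 0.12 to 0.05, 0.11 and 0.06. Over the 3 times together 38 of 39 members were then higher, but 6 instead of 15 had an unadjusted p under 0.05 (4.64% of all), with a median of 0.07. At 24 h 28 of 39 were then higher, with a median of 0.05. The share of all probe sets above 0 without these arrays is not given here, so these direction counts are not set apart from a general shift.

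**Figure D2:**
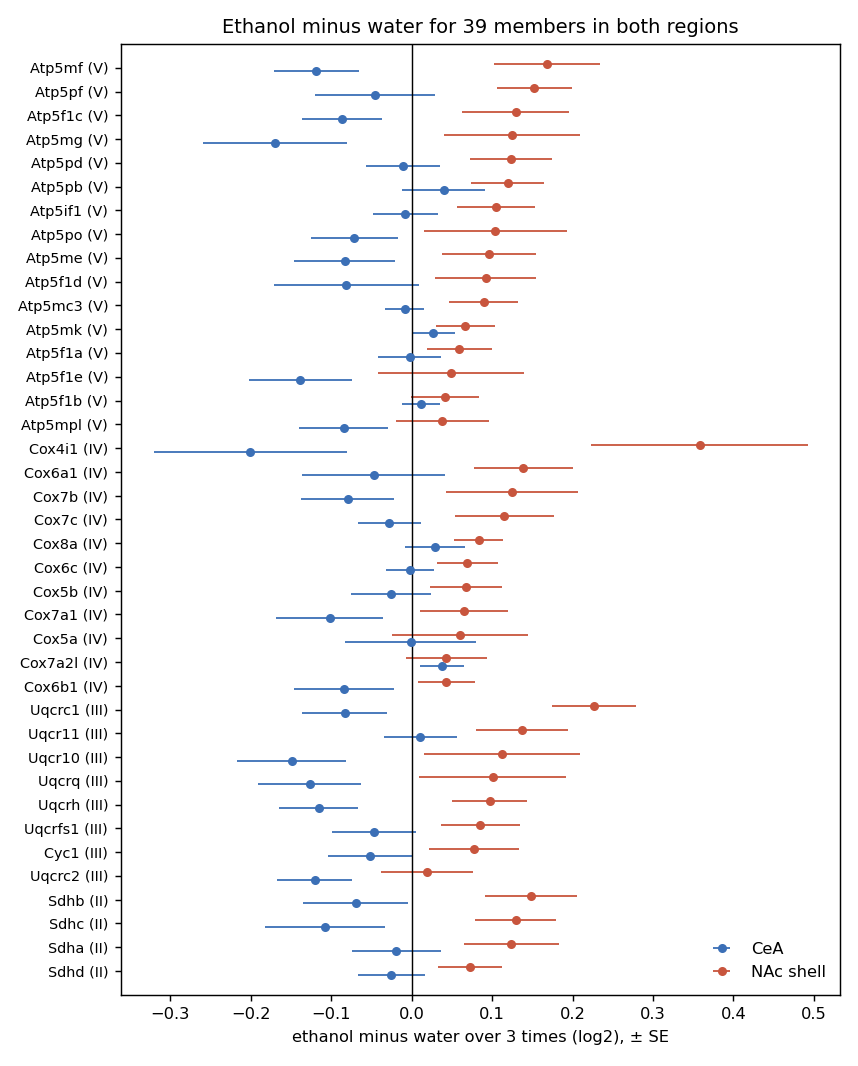
Ethanol minus water over the 3 times (horizontal axis, log2, ± SE) for each of the 39 tested members (vertical axis, by complex), in the CeA and the NAc shell. All 39 NAc shell values lie above 0 and 33 of the 39 CeA values lie below 0, and Cox4i1 lies farthest from 0 in both.

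Cell type markers were read beside these values. In the CeA at 6 h, 12 of 12 oligodendrocyte markers were lower with ethanol, with a median of -0.45 and 1 at an unadjusted p under 0.05. Their mean level ran from 10.79 to 12.19 on the water arrays and from 10.71 to 12.47 on the ethanol arrays. Microglia markers were lower for 7 of 7 tested genes (median -0.25, 3 at an unadjusted p under 0.05), with a mean level of 8.09 to 8.77 on water and 7.88 to 8.63 on ethanol arrays. Endothelial markers were lower for 8 of 8 (median -0.18, 1 at an unadjusted p under 0.05), at 9.24 to 9.83 on water and 8.94 to 9.77 on ethanol arrays. Neuron markers had a median nearer 0, with 7 of 12 lower, a median of -0.04 and a mean level of 12.14 to 12.38 on water and 12.01 to 12.31 on ethanol arrays. Markers of the labelled region went the other way. Over the 3 times 7 of 7 central amygdala markers were higher with ethanol in the CeA (median 0.19, 2 at an unadjusted p under 0.05), with Gad2, a GABA synthesis enzyme, at 0.36 ± 0.11 (adjusted p = 0.360, limma) and Prkcd at 0.19 ± 0.10. At 6 h 5 of 7 were higher (median 0.40, 2 at that level), and their mean level ran from 9.43 to 10.30 on water and from 9.60 to 10.91 on ethanol arrays. Markers of striatal projection neurons were higher for 9 of 9 in the CeA over the 3 times (median 0.13, 0 at an unadjusted p under 0.05) and for 7 of 9 at 6 h (median 0.11), with a mean level of 9.13 to 11.02 on water and 9.65 to 11.01 on ethanol arrays at 6 h. In the NAc shell over the 3 times, 11 of 11 neuron markers were higher with ethanol (median 0.06, 3 at an unadjusted p under 0.05) and so were 9 of 9 astrocyte markers (median 0.05, 1). The neuron mean there ran from 11.89 to 12.08 on water and 11.87 to 12.51 on ethanol arrays at 6 h, and from 11.90 to 12.06 and 11.90 to 12.31 at 24 h. Of 12 oligodendrocyte markers in the NAc shell 7 were lower over the 3 times, with a median of -0.01. None of the defining markers Snap25, Mbp or Drd1 was near the bottom of the scale on any array. The part of these cell types in the members' differences was not tested.

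The start regions of 4 members that the results turn on are printed to show what lies at their promoters. Sequences are RefSeq's, of the rat assembly GRCr8, from 250 bases before to 30 bases after the annotated start, on the gene's strand. Capitals mark a match on either strand to the core letters of the NRF1 motif, GCGCA and GCGC with any 1 base between them, or of the ETS motif, CCGGAAG, which nuclear respiratory factor 1 and GABP are known to bind. The windows are chr8:118467973-118468252 on the plus strand for Uqcrc1, chr1:184598990-184599269 on the plus strand for Uqcrc2, chr19:65630133-65630412 on the plus strand for Cox4i1 and chr11:37375072-37375351 on the minus strand for Atp5pf.
Uqcrc1: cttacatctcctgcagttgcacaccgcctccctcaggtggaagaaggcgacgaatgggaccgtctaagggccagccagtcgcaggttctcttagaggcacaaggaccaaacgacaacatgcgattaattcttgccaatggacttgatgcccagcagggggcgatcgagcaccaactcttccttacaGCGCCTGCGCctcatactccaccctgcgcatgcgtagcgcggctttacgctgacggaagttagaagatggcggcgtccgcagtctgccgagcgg
Uqcrc2: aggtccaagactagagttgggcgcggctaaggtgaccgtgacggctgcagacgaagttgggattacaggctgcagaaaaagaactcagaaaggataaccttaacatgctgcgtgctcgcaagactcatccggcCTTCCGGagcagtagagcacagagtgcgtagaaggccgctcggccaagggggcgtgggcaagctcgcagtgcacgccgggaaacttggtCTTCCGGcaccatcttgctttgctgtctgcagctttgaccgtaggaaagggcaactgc
Cox4i1: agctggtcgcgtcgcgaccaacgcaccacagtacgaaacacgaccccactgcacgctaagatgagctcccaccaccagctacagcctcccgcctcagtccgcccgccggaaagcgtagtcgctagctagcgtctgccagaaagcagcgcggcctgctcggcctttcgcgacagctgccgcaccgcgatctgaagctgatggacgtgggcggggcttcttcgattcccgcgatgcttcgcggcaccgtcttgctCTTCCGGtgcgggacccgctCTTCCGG
Atp5pf: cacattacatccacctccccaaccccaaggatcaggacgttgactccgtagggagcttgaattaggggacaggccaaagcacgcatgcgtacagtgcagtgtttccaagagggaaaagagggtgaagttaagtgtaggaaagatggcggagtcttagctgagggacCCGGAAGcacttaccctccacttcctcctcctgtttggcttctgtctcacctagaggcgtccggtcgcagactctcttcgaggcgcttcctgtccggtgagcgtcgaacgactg
Uqcrc1 holds 1 NRF1 core, Uqcrc2 and Cox4i1 hold 2 ETS cores each, and Atp5pf holds 1 ETS core. Of the 38 members with an entry, 7 (18.4%) hold the NRF1 core, as do 4.14% of all 33469 start regions of the same length and 5.55% of the 21851 of protein-coding genes. The ETS core is in 13 of 38 (34.2%), in 8.41% of all and in 10.4% of the protein-coding ones. The letters TATAAA, on either strand, are in 5 of 38 (13.2%), in 13.7% of all and in 12.6% of the protein-coding ones. Neither core contains the other, and each was counted apart. A match describes these letters and is no measured binding site. Whether these letters bear on the members' values was not tested.

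Complex II has 4 members, all nuclear and all tested. Sdha carries the flavin that oxidises succinate, Sdhb holds the iron-sulfur clusters, and Sdhc and Sdhd anchor the enzyme in the inner membrane. All 4 were higher with ethanol over the 3 times in the NAc shell (median 0.13, 3 at an unadjusted p under 0.05). In the CeA all 4 were lower at 6 h (median -0.23, 3 at an unadjusted p under 0.05) and all 4 higher at 1 h (median 0.05). With the title run as a block only Sdha and Sdhd were higher at 1 h, and the median was -0.01.

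Sdhb in the NAc shell at 24 h was at 11.51, 11.57, 11.65, 11.78 and 11.82 on the 5 water arrays. On the 11 ethanol arrays it ran from 11.65 through a median of 11.95 to 12.30. All 11 ethanol arrays lay above the water median and 7 above all water arrays. The difference was 0.26 ± 0.10 (log2, SE) at 24 h, with an adjusted p of 0.999 (limma), and 0.15 ± 0.06 over the 3 times, with an adjusted p of 0.324 (limma). In the CeA at 6 h Sdhb was at 11.99, 12.16, 12.31, 12.44 and 12.46 with water, and at 11.66, 11.99 and 12.23 (lowest, median, highest of 10) with ethanol. All 10 ethanol arrays were below the water median there, and 5 were below all water arrays, for a difference of -0.30 ± 0.12 (adjusted p = 0.571, limma).

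Sdha in the NAc shell at 24 h was at 12.20, 12.22, 12.27, 12.32 and 12.38 with water and at 12.15, 12.48 and 12.82 (lowest, median, highest of 11) with ethanol. Of the ethanol arrays 7 lay above all water arrays and 1 below them. Over the 3 times Sdha differed by 0.12 ± 0.06, Sdhc by 0.13 ± 0.05 and Sdhd by 0.07 ± 0.04 in the NAc shell. Sdhd, the membrane anchor, was at 12.61, 12.64, 12.73, 12.74 and 12.77 with water at 24 h, and 9 of 11 ethanol arrays were above all of these, up to 13.03. The mean of the 4 genes at 24 h was 12.14 ± 0.03 with water (SD, n = 5) and 12.33 ± 0.15 with ethanol (SD, n = 11). The ethanol values lay above all water arrays on 10 of 11 arrays, and on 8 of 9 without the low-correlation arrays, where the difference was 0.18 against 0.19 with them. In the CeA over the 3 times the same genes differed by -0.02 ± 0.06 for Sdha, -0.07 ± 0.07 for Sdhb, -0.11 ± 0.08 for Sdhc and -0.03 ± 0.04 for Sdhd.

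Complex III has 8 members. Uqcrc1 and Uqcrc2 are its large core subunits on the matrix side, Cyc1 is cytochrome c1, Uqcrfs1 is the Rieske iron-sulfur subunit, Uqcrh is the hinge subunit that touches cytochrome c1, and Uqcrq, Uqcr10 and Uqcr11 are small structural subunits. All 8 were higher with ethanol over the 3 times in the NAc shell (median 0.10, 3 at an unadjusted p under 0.05). In the CeA 7 of 8 were lower over the 3 times (median -0.10, 3 at an unadjusted p under 0.05) and all 8 were lower at 6 h (median -0.23, 5 at an unadjusted p under 0.05).

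Uqcrc1 had the smallest p of any member in the NAc shell. At 6 h it was at 11.95, 11.98, 12.04, 12.10 and 12.12 on the 5 water arrays and at 12.02, 12.27 and 12.64 (lowest, median, highest of 10) with ethanol. At 24 h it was at 12.03, 12.05, 12.09, 12.20 and 12.36 with water and at 12.03, 12.37 and 12.55 (of 11) with ethanol. At 1 h the water arrays ran from 11.71 through 12.12 to 12.34 (n = 7) and the ethanol arrays from 12.08 through 12.23 to 12.58 (n = 10). Ethanol arrays were the higher ones at each hour, with 4 of 10, 9 of 10 and 6 of 11 above all water arrays at 1, 6 and 24 h, though the ranges overlapped each time. The differences were 0.19 ± 0.08, 0.28 ± 0.09 and 0.21 ± 0.09 at 1, 6 and 24 h. Over the 3 times the difference was 0.23 ± 0.05, or 1.17-fold, with an adjusted p of 0.200 (limma).

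In the CeA Uqcrc1 at 6 h was at 12.29, 12.44, 12.54, 12.80 and 12.89 with water and at 12.08, 12.34 and 12.48 (of 10) with ethanol. All 10 ethanol arrays were below the water median, and 3 were below all water arrays. The difference was -0.27 ± 0.10 (adjusted p = 0.571, limma) at 6 h, -0.06 ± 0.09 at 1 h and 0.08 ± 0.09 at 24 h. With 1 array left out at a time the 6 h difference ran from -0.34 without water array 17 to -0.19 without water array 16. Both are low-correlation arrays.

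Uqcrc2, the other core subunit, had the smallest p among the members in the CeA over the 3 times and was nearly level in the NAc shell. In the CeA it was at 12.38, 12.66 and 12.92 (lowest, median, highest of 6) with water at 1 h and at 12.43, 12.58 and 12.78 (of 11) with ethanol. At 6 h it was at 12.58, 12.63, 12.72, 12.76 and 12.99 with water and at 12.35, 12.61 and 12.84 (of 10) with ethanol. At 24 h it was at 12.54, 12.76 and 13.02 (of 6) with water and at 12.34, 12.66 and 12.80 (of 10) with ethanol. Ethanol medians were the lower ones at each hour, with overlapping ranges. The difference over the 3 times was -0.12 ± 0.05 (adjusted p = 0.519, limma), against 0.02 ± 0.06 (adjusted p = 0.934, limma) in the NAc shell. A second Uqcrc2 probe set differed by -0.06 ± 0.07 (CeA) and 0.06 ± 0.08 (NAc shell). Its means, 6.66 and 6.70, were below the detection limits of 6.96 and 7.09.

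Of the other members of complex III, Uqcrh, Uqcrq, Uqcr10 and Uqcrfs1 had an unadjusted p under 0.05 in the CeA at 6 h. Uqcrh, the hinge subunit, was at 12.99, 13.09, 13.18, 13.19 and 13.43 with water at 6 h and at 12.79, 12.91 and 13.12 (of 10) with ethanol. All 10 ethanol arrays were below the water median, 6 of them below all water arrays, for a difference of -0.23 ± 0.09. Uqcrq differed by -0.31 ± 0.12, Uqcr10 by -0.31 ± 0.12 and Uqcrfs1 by -0.23 ± 0.09 at 6 h, each with an adjusted p of 0.571 (limma). Uqcrfs1, the Rieske subunit, was at 11.44, 11.71, 11.74, 11.77 and 11.78 with water, and 7 of 10 ethanol arrays lay below all of these. Cyc1 differed by -0.18 ± 0.09 at 6 h in the CeA and by 0.08 ± 0.06 over the 3 times in the NAc shell. Over the 3 times in the CeA Uqcrh differed by -0.12 ± 0.05 and Uqcr10 by -0.15 ± 0.07. Uqcr11 was the member of this complex that was not lower in the CeA over the 3 times, at 0.01 ± 0.05, and it differed by 0.14 ± 0.06 in the NAc shell.

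Complex IV has 17 members by name, of which 11 were tested. Cox4i1, the common form of subunit 4, takes part in the regulation of the enzyme by ATP. Cox5a and Cox5b, Cox6a1, Cox6b1, Cox6c, Cox7b, Cox7c and Cox8a are the other nuclear subunits found in most tissues, and Cox7a1 is the isoform of heart and skeletal muscle. All 11 were higher with ethanol over the 3 times in the NAc shell (median 0.07, 3 at an unadjusted p under 0.05). In the CeA all 11 were lower at 6 h (median -0.16, 1 at an unadjusted p under 0.05), and 10 of 11 were higher at 24 h (median 0.06, 0 at an unadjusted p under 0.05).

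Cox7a1 had the smallest p of all members in the CeA at 6 h. It was at 7.54, 7.62, 7.80, 7.83 and 7.85 on the water arrays and at 6.89, 7.33 and 7.59 (lowest, median, highest of 10) on the ethanol arrays. Of the ethanol arrays 9 of 10 lay below all water arrays, and the highest lay within the water range. The difference was -0.42 ± 0.12, or 0.748-fold, with an adjusted p of 0.571 (limma). At 1 and 24 h it was 0.05 ± 0.11 and 0.06 ± 0.11. Cox7a1 also had the smallest p among the members in the test for an effect that depended on the hour. Its mean over all CeA arrays, 7.41, was only a little above the detection limit of 6.96, and in the NAc shell, at a mean of 7.87, it differed by 0.07 ± 0.06 over the 3 times.

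Cox4i1 differed most among the tested members over the 3 times and at 6 h in both regions, though not in the CeA at 1 or 24 h, and it had the widest spread between arrays in both. In the NAc shell at 6 h it was at 11.96, 12.12, 12.28, 12.43 and 12.47 with water and at 11.99, 12.80 and 13.70 (of 10) with ethanol. In the CeA at 6 h it was at 12.14, 12.24, 12.59, 12.66 and 13.58 with water and at 11.65, 12.21 and 12.68 (of 10) with ethanol. Of the 10 ethanol arrays 7 lay above all water arrays in the NAc shell, while in the CeA 4 of 10 lay below them. The differences at 6 h were 0.52 ± 0.24 (adjusted p = 0.899, limma) in the NAc shell and -0.43 ± 0.22 (adjusted p = 0.571, limma) in the CeA. They were 0.36 ± 0.13 (adjusted p = 0.320) and -0.20 ± 0.12 (adjusted p = 0.661, limma) over the 3 times. In the CeA at 6 h the water array at 13.58 lay far above the other water arrays. The CeA differences and the rank of Cox4i1 without that array are not given here.

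Cox8a, a small subunit found in most tissues, was at 13.34, 13.43, 13.55, 13.56 and 13.59 with water in the NAc shell at 6 h and at 13.47, 13.66 and 13.75 (of 10) with ethanol. There 7 of 10 ethanol arrays were above all water arrays, and the difference was 0.15 ± 0.06 at 6 h and 0.08 ± 0.03 over the 3 times (adjusted p = 0.316, limma). In the CeA Cox8a differed by 0.03 ± 0.04 over the 3 times. Cox6a1 differed by 0.14 ± 0.06 in the NAc shell and by -0.05 ± 0.09 in the CeA over the 3 times. Cox5a differed by 0.06 ± 0.08 and 0.00 ± 0.08, and Cox5b by 0.07 ± 0.04 and -0.03 ± 0.05. Cox7a2l was the one member with an unadjusted p under 0.05 in the CeA at 1 h, at 0.10 ± 0.05 (adjusted p = 0.902, limma). Its water median was 13.14, with a highest of 13.28 (n = 6), and its ethanol median was 13.21, with a highest of 13.43 (n = 11). The lowest arrays of both groups were nearly equal, so the ranges overlapped over most of their length.

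**Figure D3:**
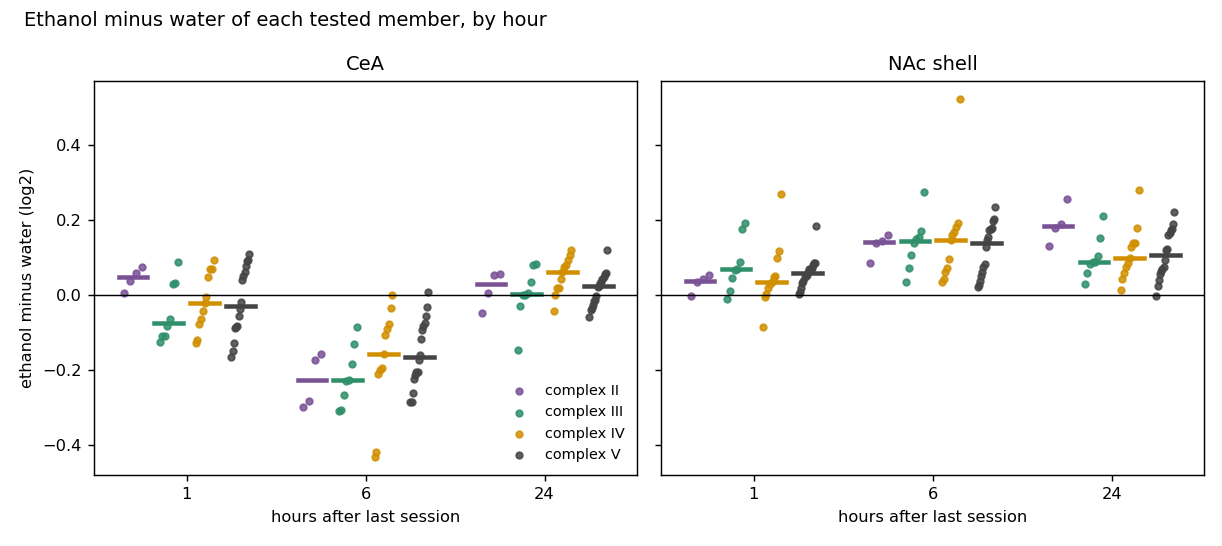
Ethanol minus water (vertical axis, log2) at 1, 6 and 24 h (horizontal axis) for each tested member, coloured by complex, in the CeA and the NAc shell. Short bars mark the median of each complex at each hour. The median of the 39 members is not drawn. In the CeA it is -0.02, -0.18 and 0.03, and in the NAc shell it is 0.05, 0.15 and 0.10.

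Complex V has 16 members, all tested. Atp5f1a to Atp5f1e are the alpha to epsilon subunits of the catalytic F1 head, Atp5pb, Atp5pd, Atp5pf and Atp5po form the peripheral stalk that holds the head still, Atp5mc3 is a form of the rotating c ring, and Atp5me, Atp5mf, Atp5mg, Atp5mk and Atp5mpl are small membrane subunits. Atp5if1 blocks the enzyme when it would run backwards. All 16 were higher with ethanol over the 3 times in the NAc shell (median 0.10, 6 at an unadjusted p under 0.05). In the CeA 13 of 16 were lower over the 3 times (median -0.06, 2 at an unadjusted p under 0.05), and 15 of 16 were lower at 6 h (median -0.17, 3 at an unadjusted p under 0.05).

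Atp5pf, coupling factor of the stalk, had the smallest p of complex V in the NAc shell. At 6 h it was at 11.86, 11.88, 11.88, 11.94 and 11.95 on the water arrays and at 11.82, 12.13 and 12.57 (lowest, median, highest of 10) with ethanol. At 24 h it was at 11.64, 11.86, 11.97, 12.04 and 12.05 with water and at 11.83, 12.12 and 12.34 (of 11) with ethanol. At 6 h 9 of 10 ethanol arrays were above all water arrays and the tenth was below all of them. The difference was 0.24 ± 0.08 at 6 h, 0.19 ± 0.08 at 24 h and 0.15 ± 0.05 over the 3 times, with an adjusted p of 0.245 (limma) for the last. In the CeA Atp5pf was at 11.58, 11.72, 11.73, 11.99 and 12.19 with water at 6 h and at 11.27, 11.71 and 12.07 (of 10) with ethanol. The ethanol and water medians there were nearly equal, 4 of 10 ethanol arrays were below all water arrays, and the difference was -0.22 ± 0.14.

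Atp5mf, a membrane subunit, was on opposite sides of 0 in the 2 regions. In the CeA at 6 h it was at 12.90, 12.95, 12.98, 13.04 and 13.30 with water and at 12.67, 12.80 and 12.98 (of 10) with ethanol. All 10 ethanol arrays were below the water median there and 6 below all water arrays. Over the 3 times the difference was -0.12 ± 0.05 in the CeA (adjusted p = 0.584, limma) and 0.17 ± 0.07 in the NAc shell (adjusted p = 0.324, limma). At 24 h in the NAc shell it was at 12.41, 12.50, 12.61, 12.68 and 13.08 with water and at 12.48, 12.80 and 13.33 (of 11) with ethanol. There 10 of 11 ethanol arrays were above the water median and 2 above all water arrays.

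The alpha and beta subunits were among the members that differed least. Atp5f1b, the beta subunit, differed by 0.01 ± 0.02 (CeA) and 0.04 ± 0.04 (NAc shell) over the 3 times, and Atp5f1a, the alpha subunit, by 0.00 ± 0.04 and 0.06 ± 0.04. At 6 h in the CeA Atp5f1b was at 14.09, 14.10, 14.11, 14.21 and 14.23 with water and at 14.07, 14.14 and 14.28 (of 10) with ethanol. That made it the member of complex V that was not lower there, at 0.01 ± 0.04. Atp5f1e, the epsilon subunit, differed by -0.29 ± 0.12 at 6 h and -0.14 ± 0.06 over the 3 times in the CeA. Atp5f1d, the delta subunit, had the smallest p of complex V in the NAc shell at 1 h, at 0.18 ± 0.10 (adjusted p = 1.000, limma). Atp5mk differed by 0.08 ± 0.04 at 1 h in the CeA. Atp5pb, the stalk's b subunit, differed by 0.12 ± 0.05 and Atp5pd by 0.12 ± 0.05 over the 3 times in the NAc shell.

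Atp5if1, the inhibitor, differed by 0.10 ± 0.05 over the 3 times in the NAc shell (adjusted p = 0.413, limma) and by -0.01 ± 0.04 in the CeA. At 24 h in the NAc shell it was at 11.15, 11.19, 11.20, 11.21 and 11.37 with water and at 11.17, 11.37 and 11.62 (of 11) with ethanol, with 6 of 11 ethanol arrays above all water arrays. Its direction was thus that of the subunits in the NAc shell. For Atp5me a second probe set did not follow the first: at 6 h in the NAc shell they differed by -0.17 ± 0.07 and 0.18 ± 0.10. The second was much dimmer, with an NAc shell mean of 7.70 (limit 7.09) against 11.80 for the first.

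**Figure D4:**
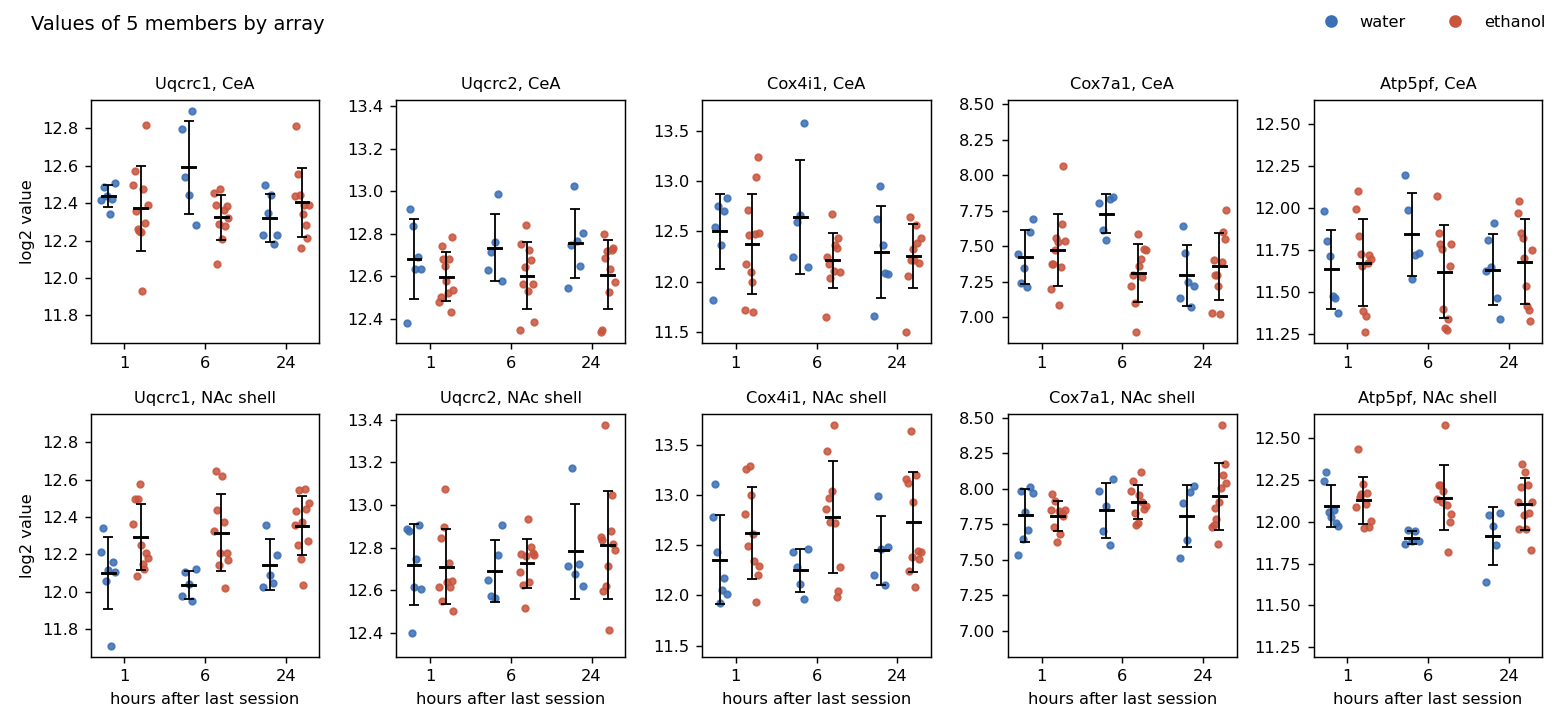
Log2 expression on each array (vertical axis) of Uqcrc1, Uqcrc2, Cox4i1, Cox7a1 and Atp5pf by hours since the last drinking episode (horizontal axis), CeA and NAc shell, water in blue and ethanol in red; points are arrays and bars are group means ± SD. For Uqcrc1 in the NAc shell at 6 h 9 of 10 ethanol arrays lie above all water arrays, and for Cox7a1 in the CeA at 6 h 9 of 10 lie below them.

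The difference between the regions was tested directly, as the ethanol effect in the NAc shell minus that in the CeA. It was above 0 over the 3 times for all 39 members (53.4% of all 17572 probe sets were above 0), 14 of them at an unadjusted p under 0.05 (5.08% of all), with a median of 0.14. None passed after adjustment (limma, smallest adjusted p 0.432). By complex the medians were 0.18, 0.18, 0.13 and 0.15 for II, III, IV and V, with 2, 4, 2 and 6 members at an unadjusted p under 0.05. Uqcrc1 had the smallest p, with a difference between regions of 0.31 ± 0.07. Atp5mf followed at 0.29 ± 0.09, then Uqcrh at 0.21 ± 0.07 and Cox4i1 at 0.56 ± 0.18, each with an adjusted p of 0.432 (limma). With array quality weights Uqcrc1 passed, at 0.30 and an adjusted p of 0.0414 (limma), as 1 of 16 probe sets that did. Atp5f1b, at 0.03 ± 0.05, and Cox7a2l, at 0.01 ± 0.06, were the members closest to 0.

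At 6 h the difference between the regions was also above 0 for all 39 members (54.3% of all), 21 of them at an unadjusted p under 0.05 (6.36% of all), with a median of 0.29. All 4 members of complex II were among the 21, with 5 of complex III, 6 of complex IV and 6 of complex V. The smallest adjusted p was 0.410 (limma), for 10 members of which Uqcrc1 differed by 0.54 ± 0.13, Cox7a1 by 0.48 ± 0.16 and Cox4i1 by 0.96 ± 0.33. At 1 h 26 of 39 were above 0 (48.3% of all), with 1 at an unadjusted p under 0.05 (0.751% of all) and a median of 0.05. At 24 h 33 of 39 were above 0 (55.8% of all), with 0 at an unadjusted p under 0.05 (0.478% of all were higher) and a median of 0.10. Without the low-correlation arrays 9 members instead of 14 had an unadjusted p under 0.05 over the 3 times (2.70% of all), with 37 of 39 above 0, and at 24 h 22 of 39 were above 0. The share of all probe sets above 0 without these arrays is not given here. The counts above 0 are thus not set apart from a general shift.

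Gene by gene, 33 of 39 members (84.6%) were lower in the CeA and higher in the NAc shell over the 3 times, against 28.4% of 17572 probe sets. At 6 h this held for 38 of 39 (97.4%), against 32.8%. The 6 members outside the pattern over the 3 times, Uqcr11, Cox7a2l, Cox8a, Atp5f1b, Atp5mk and Atp5pb, were between 0.01 and 0.04 in the CeA, and all 6 were higher in the NAc shell. The 2 regions share no array, but whether they came from the same rats is not given in the sources used here.

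The title runs of the CeA bear on its values. With the run as a block, 33 of 39 members were still lower over the 3 times (9305 of 18625 probe sets were), and 14 instead of 5 had an unadjusted p under 0.05 (7.83% of all). Those 14 were 1 member of complex II, 4 of complex III, 4 of complex IV and 5 of complex V. The smallest adjusted p was 0.114 (limma), for Uqcrc2 at -0.12 ± 0.04, and 0 members were among the 48 probe sets (0.258%) that passed in that fit. At 1 h 27 of 39 were lower with the block, against 21 without it (44.1% of all with the block), and the median was -0.06. Of these Uqcrh, Cox7b and Atp5mf were lower at an unadjusted p under 0.05 (2.13% of all), at -0.18 ± 0.08, -0.21 ± 0.08 and -0.19 ± 0.08, while Cox7a2l was higher at that level (5.47% of all). At 6 h 37 of 39 were lower with the block, 16 of them at an unadjusted p under 0.05 (5.71% of all), with a median of -0.14. Within the runs taken alone, 16 of 39 were lower in the first run, 32 in the second, 28 in the third and 33 in the fourth. Of all probe sets 46.6%, 49.8%, 51.8% and 54.8% were lower in these runs. The members' medians were 0.05, -0.07, -0.06 and -0.15. The first run, with 5 ethanol and 3 water arrays, was thus near its background. The fourth run held 2 water arrays, both at 6 h and both low-correlation arrays. Its count and median are therefore not over the 3 times, as those of the other runs are. The region difference with the block gave 21 of 39 at an unadjusted p under 0.05 (7.84% of all), all 39 above 0, and a smallest adjusted p of 0.173 (limma) for Uqcrc1.

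Members also varied together within a group. Across the arrays, after the group means were removed, the 741 pairs of members had a median correlation of 0.38 (CeA) and 0.46 (NAc shell). With other probe sets it was 0.03 and 0.07. Pairs within a complex had medians of 0.33 (CeA) and 0.49 (NAc shell), and pairs from different complexes had 0.39 and 0.45. These correlations are over 48 arrays a region that share their labelling and normalization, and are given as a description. Because members vary together, the count of members on one side of 0 is not a count of separate observations.

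RNA integrity was read from the Gapdh control probe sets, as the 3 prime minus the 5 prime signal. Its mean in the NAc shell was 1.62, 2.00 and 2.01 with water at 1, 6 and 24 h and 1.73, 1.81 and 1.83 with ethanol. It thus differed between treatments by hour, with lower values for ethanol at 6 and 24 h and a higher one at 1 h. With it as a covariate all 39 members stayed higher in the NAc shell over the 3 times, 26 of them at an unadjusted p under 0.05 (10.3% of all), with a median of 0.12 and 0 past an adjusted p of 0.05 (limma). In the CeA it was higher on the whole, at 2.91 ± 0.53 (SD, n = 48) against 1.81 ± 0.25 (SD, n = 48). It also differed between title runs there, from 2.21 to 2.93 in the second and from 2.94 to 3.82 in the third. The first run, at 2.17 to 3.40, and the fourth, at 2.33 to 3.75, overlapped both. The CeA counts with it as a covariate are not given here.

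Other genes of the pathway were read from 4 lists, and a count after a median is that of genes at an unadjusted p under 0.05. Of the complex I subunits, which feed electrons from NADH into the chain, 29 of 33 were lower in the CeA over the 3 times (median -0.05, 7) and 33 of 33 were lower at 6 h (median -0.17, 13). Of 34 tested in the NAc shell 33 were higher over the 3 times (median 0.10, 11). These medians are near those of complexes II to V, and the region difference was above 0 for 33 of 33 (median 0.14, 12). The smallest p among complex I subunits belonged to Ndufs3, a catalytic core subunit, at 0.16 ± 0.04 in the NAc shell (adjusted p = 0.217, limma), and to Ndufa12, an accessory subunit, at -0.14 ± 0.05 in the CeA.

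Assembly factors, which build complexes II to V but are no part of them, had medians nearer 0. In the CeA 22 of 33 were lower over the 3 times (median -0.03, 6 lower and 1 higher), and in the NAc shell 25 of 34 were higher (median 0.03, 4). Cox14, which helps to build complex IV, differed by 0.14 ± 0.04 in the NAc shell (adjusted p = 0.245, limma), and Atpaf1, a chaperone of complex V, by -0.09 ± 0.03 in the CeA. A further list held carriers of the inner and outer membrane and mitochondrial creatine kinase, but no cytochrome c gene. Of its genes 8 of 12 were lower in the CeA (median -0.01, 1) and 9 of 12 higher in the NAc shell (median 0.08, 5 higher and 1 lower). Ckmt1, mitochondrial creatine kinase, differed by 0.20 ± 0.06 and Slc25a4, an ADP/ATP carrier, by 0.16 ± 0.07 in the NAc shell. Regulators of mitochondrial biogenesis were lower for 7 of 12 in the CeA (median -0.02, 0 lower and 1 higher) and higher for 9 of 12 in the NAc shell (median 0.05, 2). Ppargc1b, a coactivator of such genes, was on the higher side in both regions, at 0.31 ± 0.09 in the CeA (adjusted p = 0.316, limma) and 0.19 ± 0.07 in the NAc shell.

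The 6 members of complex IV below the detection limit were Cox4i2, Cox6a2, Cox6b2, Cox6c-ps1, Cox7b2 and Cox8b. Cox4i2 is known from lung, Cox6a2 and Cox8b from heart and muscle, and Cox6b2 and Cox7b2 from testis. Nearest below the limit were Cox6a2 in the CeA, with a mean of 6.80 (limit 6.96), and Cox6c-ps1 in the NAc shell, with 6.73 (limit 7.09). Cox6a2 had an NAc shell mean of 6.56. The dimmest tested member was Cox7a1, with 7.41 and 7.87. The means of the 5 untested members other than Cox6a2 ran from 5.13 to 6.29 (CeA) and from 5.15 to 6.73 (NAc shell). Without the limit Cox8b differed by -0.13 ± 0.05 in the CeA over the 3 times (adjusted p = 0.620, limma), and no reading of its level is made from so dim a probe set. A further 5 probe sets, for Atp5mc1, Cox7a2, Atp5mc2, Cox5a and Uqcrb, are annotated with a second, near-identical gene and were not used.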

How the data were processed

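The deposited values were log2 expression of 31099 Affymetrix probe sets on 96 arrays of rat CeA and NAc shell RNA. Per the labels' protocols RNA was extracted with Trizol and RNeasy columns, and 25 ng was labelled in 2 cycles, which reads transcripts near their 3 prime end. The authors' log2 values came from RMA, per the submitters' processing notes, and whether the regions were normalized together is not given in the sources used here. Of 31042 probe sets that are no controls, 20826 had 1 gene symbol, 436 several and 9780 none, and 20758 symbols were updated through the Entrez identifier.

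Each region was fitted in limma 3.58.1 (R 4.3.3) with 6 group means (treatment by hour), a mean-variance trend and p-values adjusted by Benjamini-Hochberg across the 18625 probe sets whose region mean was above the 40th percentile. The region difference was fitted over both regions and 17572 probe sets. "Over 3 times" is the mean of the hourly differences. Code was tested on simulated data. Genes named are the core and isoform genes fixed in a list and, per comparison, those of each complex with the smallest p, 26 in all, and for other lists those with the smallest p. Members that fell outside the rule and are described by value were chosen after their values were seen. The members and lists were chosen with earlier results of these data known. Alternatives were the filter on dim probe sets, repeated quantile normalization, array quality weights, the Gapdh covariate, blocks for title number and title run, the mean of all probe sets of a gene, and arrays left out. The run block without the low-correlation arrays was added after seeing the data.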

Additional observations from a re-analysis of the deposited data

Results flagged for a closer look

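A group's highest or lowest array lay far from the others in 9 of 180 groups checked, 5.0%, which is about the 1 in 20 that chance gives. In the CeA the complex IV mean of water array 10 at 1 h was 11.75, against 11.85 for the next lowest. Cox4i1 was at 11.50 on ethanol array 4 at 24 h (next lowest 12.06). Cox7a2l was at 13.32 on water array 16 at 6 h (next highest 13.19) and at 13.07 on ethanol array 14 at 24 h (next lowest 13.17). In the NAc shell ethanol array 47 at 6 h was highest for Atp5pf, at 12.57 (next 12.22), and for Atp5mk, at 14.47 (next 14.35). Uqcr10 was at 10.93 on water array 19 at 1 h (next 10.59). Water array 31 at 24 h was highest for Uqcr10, at 11.34 (next 10.69), and for Uqcrc2, at 13.18 (next 12.72). Numbers are those of the array titles.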

How the results depend on the processing

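The count of members past an adjusted p of 0.05 (limma) was 0 in every comparison and setting run except the region difference over 3 times with array quality weights, where it was 1 (Uqcrc1, at 0.30). That setting also gave 10 instead of 5 members at an unadjusted p under 0.05 in the CeA over 3 times and 20 instead of 12 at 6 h. The share of all probe sets at that level with these weights is not given here. A rise among members is thus not set apart from a general rise. Members higher in the CeA at 6 h were 1 of 39, and 4 (of 45) with no filter, 2 with repeated quantile normalization, 3 with array weights, 2 with the replicate block, 4 without low-correlation arrays, 2 with the run block and 4 with both. Members higher in the CeA at 24 h went from 27 to 13 with array weights. Shares of all probe sets above 0 in these alternative settings are not given here. Members higher in the CeA over 3 times went from 6 to 23 within the first run and 11 within the third. The cause was not tested. With 1 array left out at a time, members higher ranged from 5 to 10 in the CeA over 3 times, 14 to 21 at 1 h (20 without ethanol array 17 and 21 without water array 1, against 18), 0 to 2 at 6 h and 18 to 32 at 24 h (18 without water array 14). The ranges were 39 to 39, 31 to 37, 37 to 39 and 34 to 39 in the NAc shell and 38 to 39, 23 to 30, 38 to 39 and 28 to 38 for the region difference, over 3 times and at 1, 6 and 24 h, and 0 members passed in any of these fits. The title numbers do not pair arrays: 17 same-number pairs in the CeA had a mean correlation of 0.07 (8 above 0.1) and 3 in the NAc shell had -0.33. The replicate block moved no member past the threshold. The number of water arrays, 5 to 7 a group, limits the precision at single hours.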
